A study of Homo sapiens with 18 samples.

Results

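The CALRins5 against CALRwt comparison under Melittin (MEL) rested on 6 of the 18 arrays of the series, namely the 3 arrays of CALRins5 cells and the 3 arrays of CALRwt cells exposed to MEL. Arrays were chosen by the vector and the agent in their labels (the label of CALRins5 replicate 2 spells the agent Melitin). All arrays were of K562 cells, an established human line from a chronic myelogenous leukemia, transduced with a retroviral vector and purified through the NGFR marker that the vector carries. The CALRwt vector (LCALRwtIDN) carries wild-type calreticulin and the CALRins5 vector (LCALRins5IDN) the type of CALR mutation named ins5. By design both groups thus carry a CALR transgene beside the CALR of the cells, and no array of cells without a vector was available. MEL was given at 5 μg/mL for 24 h. For comparison, the 3 untreated CALRins5 and 3 untreated CALRwt arrays, and the 3 CALRdel52 arrays under MEL, a second CALR mutation, were used. How long the untreated cells were cultured is uncertain, since the labels describe RNA taken straight after sorting as well as a culture without MEL. The sources used here do not give whether the MEL replicates were separate cultures. If they were not, the p-values cover only the spread among these arrays, possibly technical.

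Calreticulin is a calcium-binding chaperone of the endoplasmic reticulum (ER), where it helps newly made glycoproteins to fold. The mutations that cause myeloproliferative neoplasms change its C-terminal end. When unfolded proteins accumulate in the ER, the sensors PERK, IRE1 and ATF6 start the unfolded protein response (UPR), which slows protein synthesis and raises genes for chaperones, for import into the ER and for transport out of it. Melittin, the main peptide of bee venom, is a membrane-lytic toxin that the authors used to cause oxidative stress. The comparison asks how cells with the mutated protein differ from cells with the wild-type protein while under that stress.

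The values were RMA signals on the log2 scale, with 1 value per probe set, and a difference is given as CALRins5 minus CALRwt unless other groups are named. A gene was read through the probe sets that name it alone, and its brightest probe set stands for it in the gene lists. Differences were tested with limma over all 54675 probe sets and were called at a Benjamini-Hochberg adjusted p under 0.05. Of the K562 marker genes, 7 of the 9 listed were measured, among them TFRC, the transferrin receptor, with a mean of 12.49 ± 0.14 (SD, n = 3) in CALRins5 cells and 12.60 ± 0.04 in CALRwt cells under MEL. Array means of the T cell, B cell, monocyte and fibroblast marker lists lay between 4.22 and 5.35 in these 6 arrays, against 10.50 to 10.64 for the K562 list, although signals of different probe sets are not on a common scale. The 3 arrays of CALRins5 cells under MEL were not alike in RNA quality. For GAPDH, whose 3' probe set exceeds the 5' one by more in degraded RNA, this excess was a log2 value of 1.33 in CALRins5 replicate 1 and 0.45 and 0.53 in replicates 2 and 3, against 0.55 to 0.68 in CALRwt cells. On the first principal component of the 6 arrays (31.0% of the variance) this array had a score of -41.7, and the 5 others lay between -9.8 and 22.9. On the second (22.8%) CALRwt replicate 3 had -36.2, and the 5 others lay between -9.9 and 16.1.

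Under MEL, 22 probe sets were called, which is 0.0402% of all tested, and 17 of them (0.0311%) were lower in CALRins5 cells. They named 17 genes, of which 13 were lower and 4 higher. Among the lower genes were SEC61A1, SEC61B, SSR1 and SSR2, which act in import into the ER, DNAJB9, an ER co-chaperone, and SEC24D and COG3, of vesicle coats and Golgi tethering. SEC61B and SSR1 were called through probe sets other than their brightest. Each of the 22 had its 3 CALRins5 arrays all on one side of the 3 CALRwt arrays, a separation that 11.4% of all probe sets showed. At an unadjusted p under 0.01, 999 probe sets (1.83%) differed, 459 higher and 540 lower. The differences over all probe sets were small, with a median absolute value of 0.09, and 5 probe sets exceeded 1.

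The calls rested on the spread pooled over all 18 arrays. With the 6 arrays alone limma called 0 probe sets (2958 at an unadjusted p under 0.05), and with the 9 MEL arrays it called 1, ABCB1. Leaving out CALRins5 replicate 1, the array with the largest GAPDH excess, left 17 calls, of which 13 were among the 22, and with the GAPDH excess as a covariate 44 were called, all 22 among them. Without CALRins5 replicate 2 or 3 there were 2 and 5 calls, and without CALRwt replicate 1, 2 or 3 there were 6, 2 and 13. With each of the 6 arrays left out in turn, the 22 probe sets had the same sign every time, but only 2 of them, the brightest of ABCB1 and DNAJB9, were called every time, so each other call below was lost without at least 1 array.

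The ER chaperone DNAJB9 (ERdj4), a co-chaperone that brings unfolded proteins to BiP and is a target of the IRE1 branch, had the second smallest adjusted p after ABCB1. Its signals were 8.15, 8.40 and 8.40 in CALRins5 cells and 9.04, 9.16 and 9.11 in CALRwt cells under MEL. All CALRins5 arrays lay below all CALRwt arrays. The difference was -0.79 (standard error 0.09, limma adjusted p = 8.53e-04), or 1.73-fold lower. Without MEL the signals were 8.18, 8.22 and 8.27 in CALRins5 cells and 8.67, 8.54 and 8.66 in CALRwt cells, also without overlap, and the difference of -0.40 did not pass (adjusted p = 0.192). Thus the mean rose from 8.62 to 9.10 between untreated and MEL arrays of CALRwt cells and lay at 8.22 and 8.31 in CALRins5 cells, but the test of the difference in response (-0.39, adjusted p = 0.955) did not pass. A second probe set of the gene was also called (-0.71), and the third had -0.54 (adjusted p = 0.119).

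Import into the ER runs through the SEC61 channel, with the translocon-associated proteins SSR1 to SSR4 beside it. For SEC61A1, the pore subunit, the CALRins5 arrays under MEL read 8.73, 8.63 and 8.69 and the CALRwt arrays 9.29, 9.24 and 9.21. The arrays did not overlap, and the difference was -0.56 (standard error 0.08, adjusted p = 0.0161). Untreated cells differed by -0.14. The signals of SSR2 under MEL were 10.27, 10.31 and 10.29 in CALRins5 cells and 10.73, 10.85 and 10.87 in CALRwt cells, without overlap, whereas the untreated difference was 0.04. The MEL difference of SSR2 was -0.53 (adjusted p = 0.0286), and its difference in response, -0.57, did not pass (adjusted p = 0.532).

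SSR1 was read by 6 probe sets, all lower in CALRins5 cells under MEL, and 2 of them were called, at -0.60 and -0.55. The first of these read 8.61, 8.35 and 8.46 in CALRins5 cells against 9.08, 9.03 and 9.10 in CALRwt cells, with no overlap. The brightest probe set of SSR1 differed by -0.29 and did not pass (adjusted p = 0.560), with overlapping arrays. For SEC61B, a small subunit of the channel, the called probe set was a dim one (-0.79, adjusted p = 0.0315), while the brightest read 10.95, 10.84 and 10.88 against 11.29, 11.26 and 11.32. The latter pair of groups lay apart, but the difference of -0.40 missed the threshold (adjusted p = 0.0665).

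Of the 24 measured genes of ER translocon and signal recognition, 2 were called lower by their brightest probe set, 4 were called lower by any probe set, and 0 were called higher. Over all 19775 genes, 0.0759% were called by the brightest probe set, 11 lower and 4 higher. By any probe set 13 of all genes were called lower and 4 higher. The median difference of the list was -0.08, beside 0.02 over all genes. Below 0 were 8808 of all 19775 genes and 17 of the 24. At an unadjusted p under 0.01, 4 were lower and 0 higher, whereas 0.976% of all genes were lower and 1.26% higher. The fourth of these, SRPRA, the receptor of the signal recognition particle, had -0.31 (adjusted p = 0.310). The array means of the list lay between 10.12 and 10.17 in CALRins5 cells and between 10.23 and 10.28 in CALRwt cells under MEL, and between 10.13 and 10.18 and between 10.18 and 10.19 in untreated cells.

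Proteins leave the ER in COPII vesicles and are brought back in COPI vesicles. SEC24D, a cargo-binding subunit of the COPII coat, had the largest difference of all called genes. Its signals were 5.38, 5.18 and 5.15 in CALRins5 cells and 6.77, 6.17 and 6.04 in CALRwt cells under MEL. The difference was -1.09 (standard error 0.18, adjusted p = 0.0313), or 2.12-fold lower, with no overlap. CALRwt replicate 1 was the highest array, and without it the difference was -0.87 (adjusted p = 0.123). Untreated cells differed by -0.57 (adjusted p = 0.917). The 2 other probe sets of SEC24D, both dim, had -0.38 and -0.12.

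Of the 33 measured genes of vesicle transport, 1 was called lower and 0 higher, beside 11 and 4 of all 19775 genes. Below 0 were 8808 of all genes and 28 of the 33. Their median was -0.13, beside -0.05 for the same genes in untreated cells. At an unadjusted p under 0.01, 9 were lower and 1 higher, to be read against 0.976% and 1.26% of all genes. Among the 9, SEC24C, another COPII subunit, had -0.42 (adjusted p = 0.249), PREB, which activates the COPII GTPase, had -0.36 (adjusted p = 0.303), and KDELR3, which retrieves ER proteins, had -0.49 (adjusted p = 0.451). The single higher gene was SAR1B, the GTPase that starts the coat, at 0.28 (adjusted p = 0.524). None of these passed the test. The array means of the list were 9.07 to 9.11 in CALRins5 cells and 9.15 to 9.34 in CALRwt cells under MEL.

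**Figure D1:**
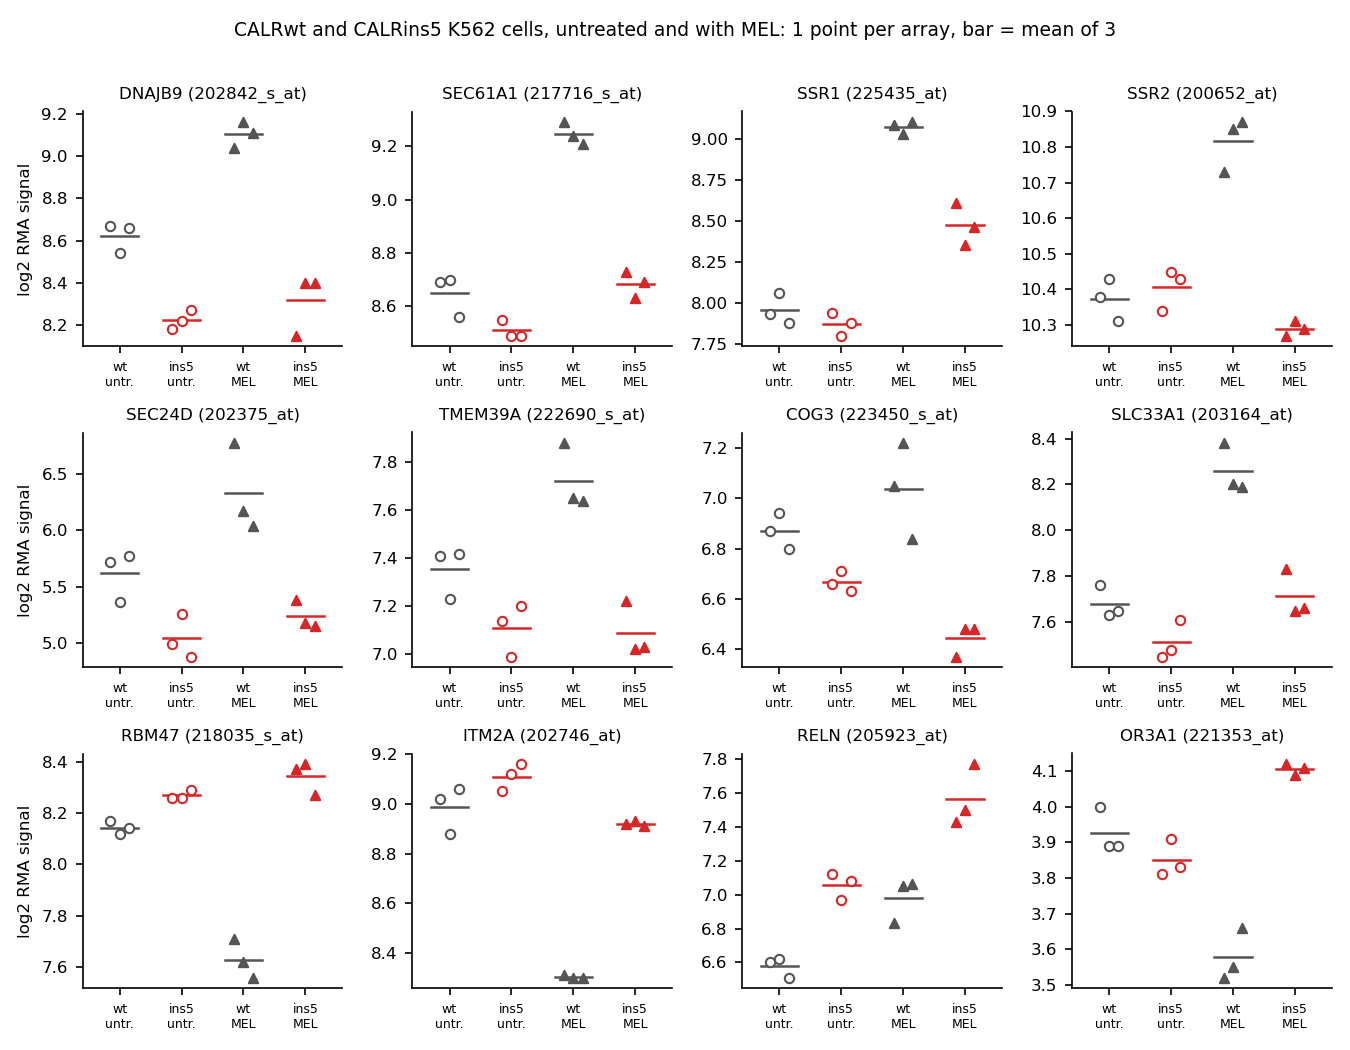
Log2 RMA signal (vertical axes, each with its own range) of 12 called genes by vector and treatment, with 1 symbol per array, open circles for untreated cells (untr.), filled triangles for MEL and a bar at the mean of 3 arrays. Under MEL the CALRins5 arrays lie below the CALRwt arrays in the upper 8 panels (DNAJB9 8.15 to 8.40 against 9.04 to 9.16) and above them in the lower 4 (RBM47 8.27 to 8.39 against 7.56 to 7.71).

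Further called genes of the ER and Golgi were TMEM39A, SLC33A1 and COG3. TMEM39A, a membrane protein of the ER, read 7.22, 7.02 and 7.03 in CALRins5 cells and 7.88, 7.65 and 7.64 in CALRwt cells, with no overlap, and the difference was -0.63 (adjusted p = 0.0191). A second probe set of the gene was also called, at -0.61. SLC33A1, which carries acetyl-CoA into the ER, read 7.83, 7.65 and 7.66 against 8.38, 8.20 and 8.19, again without overlap, a difference of -0.54 (adjusted p = 0.0313). COG3, a subunit of the complex that tethers vesicles at the Golgi, read 6.37, 6.48 and 6.48 against 7.05, 7.22 and 6.84, a difference of -0.59 (adjusted p = 0.0414). With all probe sets of a gene averaged, COG3 had -0.32 (adjusted p = 0.421) and SEC61A1 -0.54 (adjusted p = 0.231), which did not pass. Untreated differences of TMEM39A, SLC33A1 and COG3 were -0.24, -0.17 and -0.21, none of which passed.

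The other ER lists held few calls. Of 27 measured ER chaperones and disulfide enzymes, DNAJB9 was the only one called, the median was 0.02, and 16 lay above 0. P4HB, a protein disulfide isomerase, had -0.28 (adjusted p = 0.369), whereas CRELD2 had 0.40 (adjusted p = 0.125), a gene that was called higher in untreated cells (0.52, adjusted p = 0.0403). Of 22 genes of ER-associated degradation and 22 UPR sensors and transcription factors, 0 were called. The lowest values were those of ERLEC1, an ER lectin (-0.45, adjusted p = 0.0764), of BHLHA15, a transcription factor of secretory cells (-0.93, adjusted p = 0.0686), and of EIF2AK3, which encodes PERK (-0.47, adjusted p = 0.147). BHLHA15 read 3.52, 3.39 and 3.41 in CALRins5 cells and 4.55, 4.17 and 4.38 in CALRwt cells, which are apart but near the low end of the signals.

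Central genes of the UPR did not pass. HSPA5, encoding the chaperone BiP, read 12.00, 11.96 and 11.84 in CALRins5 cells and 12.00, 11.91 and 11.76 in CALRwt cells, overlapping, with a difference of 0.04 (95% interval -0.15 to 0.24). DDIT3 (CHOP), the death-linked factor of the PERK branch, differed by 0.05, ATF4 by -0.04 and XBP1 by 0.02, and in each of them the arrays overlapped. The XBP1 probe set does not tell spliced from unspliced mRNA. PPP1R15A (GADD34) had -0.13 (adjusted p = 0.795). Of 30 ATF4 and CHOP targets, 0 were called, with a median of 0.03.

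CALR itself was read by 3 probe sets, and the brightest is of a cross-hybridising type. It does not tell the vector's transcript from that of the cells nor the mutated from the wild-type one. It read 6.65, 6.52 and 6.64 in CALRins5 cells and 6.16, 6.35 and 6.04 in CALRwt cells under MEL, apart, with a difference of 0.42 that did not pass (adjusted p = 0.336). The mean of its 3 probe sets differed by 0.34 (adjusted p = 0.425). Untreated cells differed by 0.41. NGFR, the selection marker, read 3.49 to 3.91 and 3.28 to 3.97, so the vectors could not be checked by it.

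The study also named oxidative stress genes. OXR1, an oxidation resistance gene, had 0.20, SOD1 0.18, SOD2 0.24 and GSR, the glutathione reductase, -0.11, and H2AX, the histone phosphorylated at DNA breaks, had -0.08. None passed the test, with adjusted p between 0.687 and 0.915. For SOD and GSR the study measured enzyme activity, and for H2AX its phosphorylation. The mRNA signals here measure neither. The OXR1 probe set, the brightest of 5, is of a cross-hybridising type, and it differed by 0.01 in untreated cells. The study reported lower OXR1 mRNA in K562 cells with mutated than with wild-type CALR, for both mutants together. It does not state MEL exposure for that comparison, so the MEL difference given here is not a like measure of it. The SOD1 arrays of CALRins5 cells (12.20, 12.31 and 12.25) lay above those of CALRwt cells (12.14, 12.04 and 12.04). So did the SOD2 arrays (6.70, 6.73 and 6.71 against 6.37, 6.51 and 6.53). Of 26 genes of NRF2 targets and antioxidant enzymes 0 were called and the median was -0.01, and of 29 genes of the DNA damage response 0 were called and the median was 0.02. Of 24 HIF and prolyl hydroxylase genes 0 were called and 18 lay above 0, led by the collagen prolyl hydroxylases P4HA1 (0.46, adjusted p = 0.0735) and P4HA2 (0.36, adjusted p = 0.187).

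**Figure D2:**
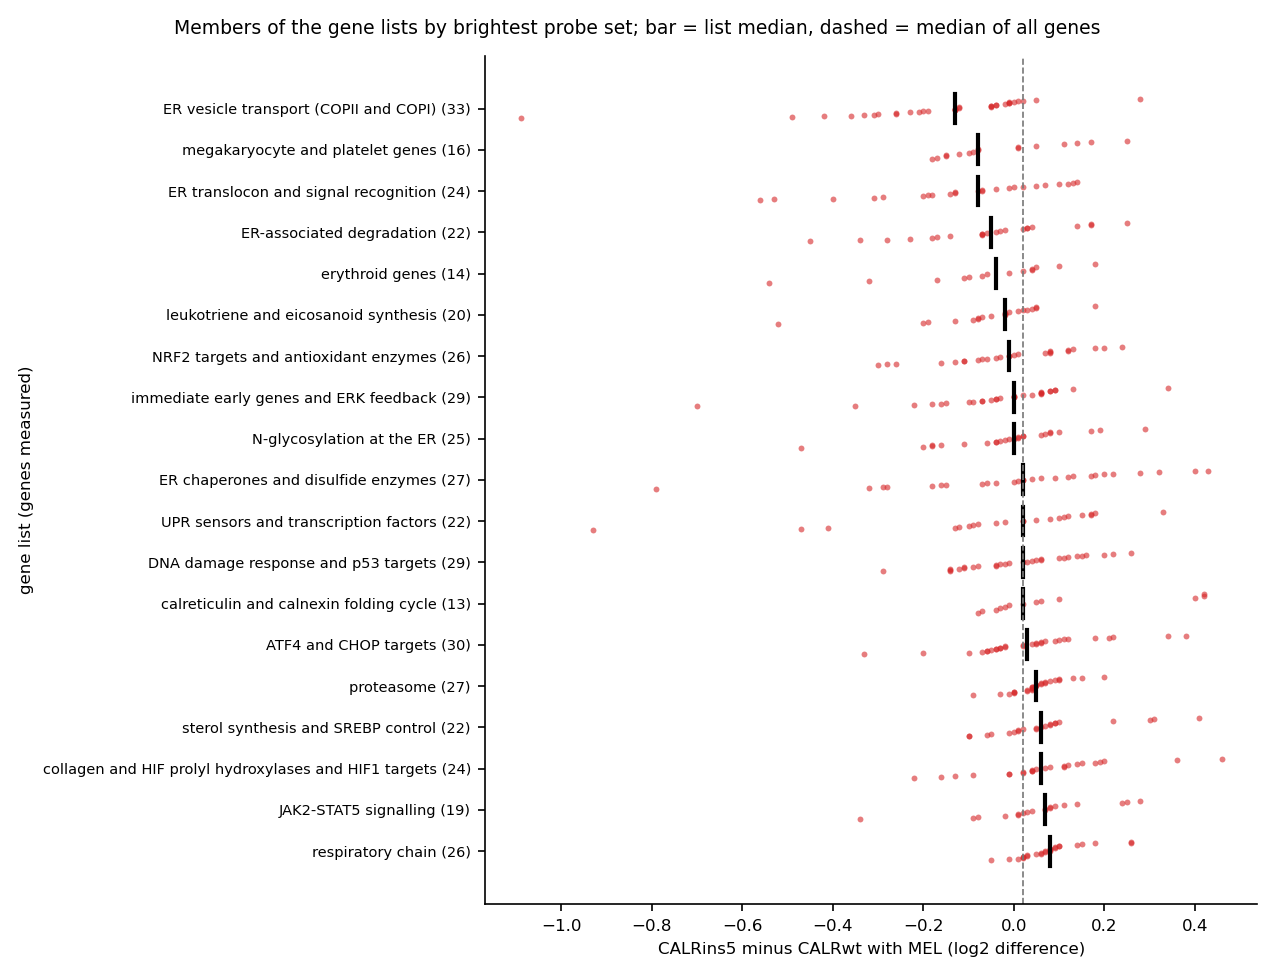
Log2 difference between CALRins5 and CALRwt cells under MEL (horizontal axis) of the measured members of 19 gene lists (vertical axis, number of genes in brackets), with 1 point per gene by its brightest probe set, a black bar at each list median and a dashed line at 0.02, the median of all genes. The list of ER vesicle transport has the lowest median, -0.13, and the respiratory chain the highest, 0.08.

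Some called genes shared letters in the bases just before their start. CCACG is the part of the ER stress element that the UPR factors ATF6 and XBP1 contact. The letters CCACGT, which are CCACG with a T after it, were searched on both strands. The search covered the 250 bases upstream of each start in the RefSeq promoter table (GRCh38.p14). They were present in 4 of the 12 lower genes with a promoter in the table, in 0 of the 4 higher genes, and in 8.47% of all 27305 promoters. CCACG without the T was not counted, and the higher gene ITM2A and the lower genes SSR2 and SLC33A1 also carry it. SEC24D was not in the table. The whole ER stress element (CCAAT, 9 free bases, CCACG), its second form (ATTGG, 1 free base, CCACG) and TGACGTGG, whose last letters are the reverse complement of CCACGT, were in none of the 16, and in 0.0806%, 0.0513% and 0.667% of all promoters. The 4 upstream stretches are shown because they belong to lower genes that carry these letters, in capitals, each 5′ to 3′ in the sense of the gene and ending 1 base before its start.
DNAJB9, chr7:108569624-108569873, plus strand: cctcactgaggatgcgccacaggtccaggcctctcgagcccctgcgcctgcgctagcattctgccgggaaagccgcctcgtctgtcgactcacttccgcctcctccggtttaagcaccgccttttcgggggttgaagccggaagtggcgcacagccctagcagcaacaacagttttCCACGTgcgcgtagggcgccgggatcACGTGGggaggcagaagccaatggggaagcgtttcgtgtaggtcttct
SSR1, chr6:7313200-7313449, minus strand: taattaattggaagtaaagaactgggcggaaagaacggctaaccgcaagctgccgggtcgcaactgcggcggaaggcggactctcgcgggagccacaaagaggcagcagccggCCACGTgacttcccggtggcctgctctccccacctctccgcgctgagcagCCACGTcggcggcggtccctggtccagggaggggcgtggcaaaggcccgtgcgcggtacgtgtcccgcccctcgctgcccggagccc
TMEM39A, chr3:119463616-119463865, minus strand: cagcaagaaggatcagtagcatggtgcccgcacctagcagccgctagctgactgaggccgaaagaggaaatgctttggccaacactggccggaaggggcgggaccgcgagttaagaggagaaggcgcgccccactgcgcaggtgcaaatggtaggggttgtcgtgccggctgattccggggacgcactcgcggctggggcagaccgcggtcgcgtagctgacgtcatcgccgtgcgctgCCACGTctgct
COG3, chr13:45464689-45464938, plus strand: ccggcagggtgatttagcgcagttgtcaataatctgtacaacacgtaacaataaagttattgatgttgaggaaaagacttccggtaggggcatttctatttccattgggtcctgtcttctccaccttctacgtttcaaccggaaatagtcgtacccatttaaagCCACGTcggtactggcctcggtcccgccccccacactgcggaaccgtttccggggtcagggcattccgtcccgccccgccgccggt
In DNAJB9 the letters occur at 68 and 42 bases from the start, in opposite orientations, in SSR1 at 131 and 81, in TMEM39A at 5 and in COG3 at 80. A match describes the letters only, and no binding was measured here.

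The 4 higher genes had no common list. RBM47, an RNA-binding protein, read 8.37, 8.39 and 8.27 in CALRins5 cells and 7.71, 7.62 and 7.56 in CALRwt cells under MEL, with no overlap, and the difference was 0.71 (standard error 0.09, adjusted p = 0.00965), or 1.64-fold. Its untreated arrays read 8.26, 8.26 and 8.29 against 8.17, 8.12 and 8.14, so that the CALRwt cells under MEL were the low group. Of its 4 other probe sets, 3 had negative differences (-0.17, -0.19 and -0.06) and 1 had 0.39, and the mean over all 5 differed by 0.14 (adjusted p = 0.765).

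For ITM2A, a membrane protein, CALRwt cells under MEL were also the lowest group. It read 8.92, 8.93 and 8.91 in CALRins5 cells and 8.31, 8.30 and 8.30 in CALRwt cells, a difference of 0.62 (adjusted p = 0.0360) without overlap, and its other probe set had 0.55 (adjusted p = 0.166). RELN, a secreted glycoprotein, read 7.43, 7.50 and 7.77 against 6.83, 7.05 and 7.06, a difference of 0.59 (adjusted p = 0.0315), and it was 0.48 higher in untreated cells (adjusted p = 0.164). OR3A1, an olfactory receptor with dim signals near 4, had 0.53 (adjusted p = 0.0191).

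Below the threshold, the 6 next genes on the higher side by p, all with arrays apart, were PPDPFL (0.64), GAL, the neuropeptide galanin (0.51), LPCAT2 (0.53), P4HA1 (0.46), HEPACAM2 (0.63) and ALOX5, the 5-lipoxygenase of leukotriene synthesis (0.60). Their adjusted p lay between 0.0586 and 0.0901. LPCAT2 and ALOX5 were read by a probe set other than their brightest. With all probe sets of a gene averaged, the difference was 0.05 for ALOX5, 0.19 for P4HA1, 0.25 for LPCAT2 and 0.36 for GAL. SND1-IT1, a noncoding transcript within SND1, was called lower (-0.56, adjusted p = 0.0228).

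The same vectors without MEL gave 16 calls (0.0293% of the probe sets), 6 higher and 10 lower, on arrays that the MEL comparison does not use. Of the 22 probe sets called under MEL, 19 had the same sign in untreated cells, 21 had the larger absolute difference under MEL, and 2 were called in both. Since the 22 were chosen by their MEL difference, their untreated values would be smaller on average in any case. The test of the difference in response to MEL between the vectors called 0 probe sets (0%), with 2831 at an unadjusted p under 0.05 and a smallest adjusted p of 0.0887, so a difference between the MEL and the untreated comparison was not shown for any gene. The linear model without moderation also called 0, and limma with trend and robust options called 7.

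**Figure D3:**
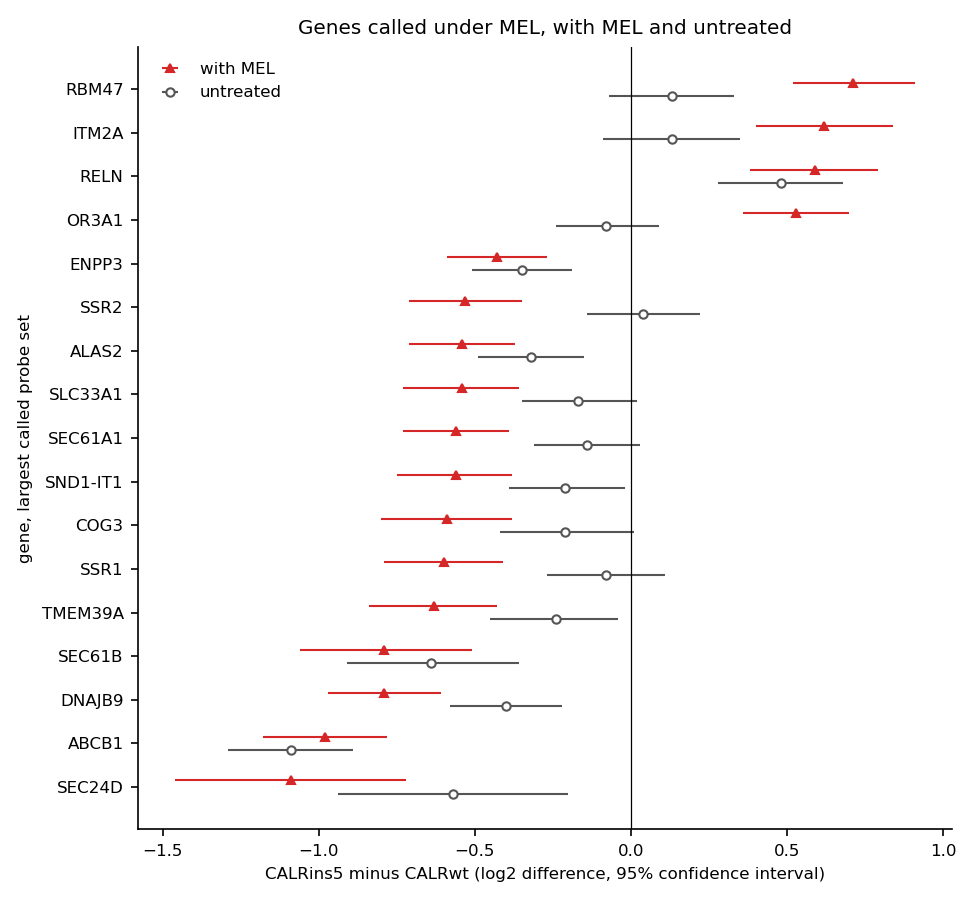
Log2 difference between CALRins5 and CALRwt cells (horizontal axis) of the 17 genes called under MEL (vertical axis), with filled triangles for MEL arrays, open circles for untreated arrays and lines for the 95% confidence intervals of limma. SSR2 (-0.53 and 0.04), SSR1 (-0.60 and -0.08) and RBM47 (0.71 and 0.13) lie far apart in the 2 conditions, and ABCB1 (-0.98 and -1.09) does not. The genes were chosen by their MEL difference, and the test of the difference in response called none of them.

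ABCB1, the drug efflux pump P-glycoprotein, was the one gene with a single probe set called both under MEL and without it. Its signals under MEL were 4.97, 5.08 and 4.86 in CALRins5 cells and 5.98, 5.90 and 5.97 in CALRwt cells, and 3.69, 3.92 and 3.68 against 5.05, 4.73 and 4.80 without MEL. The groups did not overlap in either condition. The differences were -0.98 (standard error 0.10, adjusted p = 3.6e-04) and -1.09 (adjusted p = 6.29e-05). A second, dim probe set that names ABCB1 alone had -0.30 under MEL (limma adjusted p = 0.679) and -0.22 without it. Its arrays overlapped in both conditions, and neither difference passed. The other probe set called in both conditions, at -1.04 and -0.97, names several genes.

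The CALRdel52 cells under MEL were set beside the CALRins5 cells to see where the mutants differ. The test of CALRins5 against CALRdel52 under MEL called 22 probe sets (0.0402%), 10 higher and 12 lower in CALRins5 cells. It uses the same CALRins5 arrays as the comparison with CALRwt cells, so both would move with any shift of those 3 arrays. ABCB1, ALAS2 and ENPP3 were the genes called in both. For ABCB1 the CALRdel52 arrays read 5.96, 5.85 and 5.85, close to CALRwt cells, and the difference between CALRins5 and CALRdel52 was -0.92 (adjusted p = 5.26e-04).

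ALAS2, the first enzyme of heme synthesis in erythroid cells, read 8.06, 7.86 and 7.98 in CALRins5 cells, 8.59, 8.47 and 8.45 in CALRwt cells and 8.56, 8.56 and 8.65 in CALRdel52 cells under MEL. The difference of CALRins5 from CALRwt was -0.54 (adjusted p = 0.0191) and that from CALRdel52 -0.62 (adjusted p = 0.0034), without overlap in either case. A second, dim probe set of ALAS2 had -0.28 against CALRwt (limma adjusted p = 0.666) and -0.02 against CALRdel52 (adjusted p = 0.984). ALAS2 was the single call among 14 measured erythroid genes, whose median was -0.04, and the embryonic globin HBE1 had -0.32 (adjusted p = 0.260). ENPP3, an ectoenzyme of the cell surface (CD203c), was chosen after its values were seen. It read 8.57, 8.51 and 8.59 in CALRins5 cells, 9.08, 8.97 and 8.91 in CALRwt cells and 9.06, 8.97 and 9.05 in CALRdel52 cells, with differences of -0.43 (adjusted p = 0.0477) and -0.47 (adjusted p = 0.0254). Its untreated difference from CALRwt was -0.35 (adjusted p = 0.187) in this probe set. Another probe set of ENPP3 was called in untreated cells (-0.75, adjusted p = 0.0225) and had -0.50 under MEL (adjusted p = 0.186), so ENPP3 was called in both conditions, though through different probe sets. Against CALRdel52 under MEL this other probe set had -0.30, which did not pass (limma adjusted p = 0.479).

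**Figure D4:**
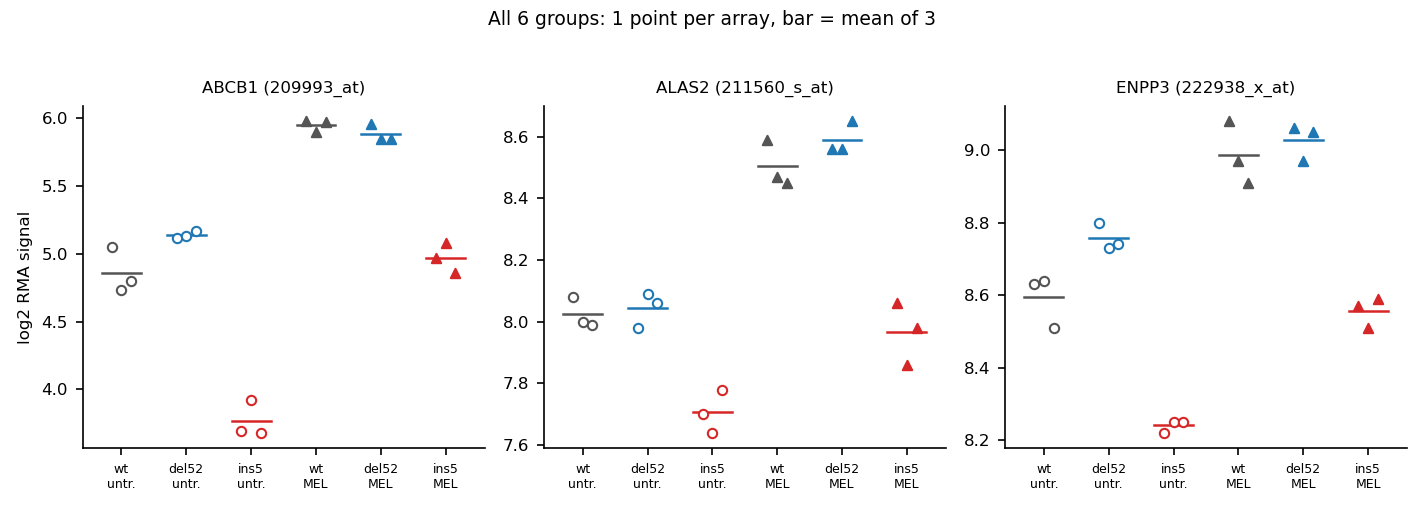
Log2 RMA signal (vertical axes, each with its own range) of ABCB1, ALAS2 and ENPP3 in the 6 groups of vector and treatment, with 1 symbol per array, open circles for untreated cells (untr.), filled triangles for MEL and a bar at the mean of 3 arrays. The CALRins5 arrays lie below both other vectors in each condition, for ABCB1 under MEL at 4.86 to 5.08 against 5.85 to 5.98.

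For the called genes of the ER and Golgi the values of both mutants were as follows. The CALRdel52 minus CALRwt difference under MEL, which shares the CALRwt arrays, was -1.12 for SEC24D, -0.65 for DNAJB9, -0.44 for SEC61A1, -0.48 for SSR2, -0.48 for TMEM39A, -0.33 for SLC33A1 and -0.26 for COG3. In the probe sets called at -0.79 for SEC61B and -0.60 for SSR1 it was -0.79 and -0.45. Of the 22 probe sets called for CALRins5, 20 had the same sign in this difference, and limma also called 6 in it. They were those of DNAJB9, SEC24D, SEC61B, SND1-IT1 and RBM47 and the second one of TMEM39A. CALRins5 and CALRdel52 cells differed by 0.03, -0.14, -0.12, -0.04, -0.16, -0.21 and -0.33 for SEC24D to COG3 in that order. For SEC61B and SSR1 they differed by 0.00 and -0.15. None of these passed (limma adjusted p from 0.392 to 0.998). The arrays of the mutants lay apart for COG3, SEC61A1 and SLC33A1, each lower in CALRins5 cells. The highest CALRins5 and lowest CALRdel52 arrays read 6.48 and 6.61 for COG3, 8.73 and 8.74 for SEC61A1, and 7.83 and 7.86 for SLC33A1. How many of all probe sets lay apart between the mutants was not counted. For COG3 the difference between the mutants was larger than that between CALRdel52 and CALRwt. For DNAJB9 the 95% interval of the difference between the mutants was -0.32 to 0.04. The median of the vesicle transport list was -0.15 for CALRdel52 and -0.13 for CALRins5 against CALRwt, and that of the translocon list -0.10 and -0.08.

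The lists outside the ER held few calls, but some lay mostly on one side of 0. Of the respiratory chain 24 of 26 genes were above 0, of the proteasome 24 of 27 and of sterol synthesis 17 of 22, where 10967 of all 19775 genes were above 0 and 8808 below. Array means under MEL overlapped for the proteasome (10.65 to 10.75 in CALRins5 against 10.60 to 10.69 in CALRwt cells) and for sterol synthesis (7.53 to 7.62 against 7.48 to 7.54). Those of the respiratory chain did not (11.18 to 11.22 against 11.08 to 11.15). The proteasome median was 0.05 both under MEL and untreated. Of 22 genes of sterol synthesis and SREBP control 0 were called, with a median of 0.06 under MEL and 0.18 in untreated cells, and STARD4, a sterol carrier, had 0.41 (adjusted p = 0.303). Of 19 JAK2-STAT5 genes 0 were called, with cyclin D1 (CCND1) at -0.34 (adjusted p = 0.479). FOS, an immediate early gene, had -0.70 (adjusted p = 0.287) and was the lowest of 29 genes of its list, of which 0 were called. The proteasome, respiratory chain, N-glycosylation, leukotriene, megakaryocyte and calreticulin cycle lists also held 0 calls, with medians from -0.08 to 0.08.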

How the data were processed

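Gene expression of transduced K562 cells was measured on 18 arrays, 3 for each of 6 groups of vector and treatment. The deposited values are RMA expression values on the log2 scale that the authors made in Partek, per the labels, with 1 value for each of 54675 probe sets of the HG-U133 Plus array. RMA corrects background, equalises arrays and summarises probes, which compresses differences of dim probe sets. The values were used as deposited, and no probe set was filtered. The supplement names another array and kit than the probe sets and the labels. Gene names came from the platform annotation: 41097 probe sets named 1 gene, 1801 several and 11777 none, and only the first were used for single genes.

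Groups and replicate numbers were taken from the labels. The model had 6 groups over the 18 arrays and was fitted in R 4.3.3 by limma 3.58.1 (lmFit, contrasts.fit and eBayes, two-sided). P-values were adjusted by Benjamini-Hochberg across the 54675 probe sets and called under 0.05. The unadjusted p under 0.01 that the study used was counted beside it. Deviations of same-numbered arrays correlated at 0.14, 0.12 and -0.07, so the numbers were not treated as pairs. The fit was tested on simulated data. The number of arrays limits the precision.

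Genes were named by a rule: the 10 highest and 10 lowest differences among called probe sets that name 1 gene and whose arrays lie apart, 1 per gene, with places filled by unadjusted p under 0.01 where fewer passed, at most 4 called genes per list, and the genes that the study names. The comparison, the rule and the gene lists were chosen with earlier results of these data known. Promoter bases are those of RefSeq (GRCh38.p14). Plots were made in matplotlib 3.10.9 under Python 3.11.15. The alternatives tried are given in the closing section. The array data of cells other than these 18, and the study's other assays, were not used here.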

Additional observations from a re-analysis of the deposited data

Results flagged for a closer look

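In the contrast between the mutants under MEL, CALRins5 differed from CALRdel52 by -0.92 for ABCB1, by -0.62 for ALAS2 and by -0.47 for ENPP3 on the log2 scale. Each was called by limma in the test of the difference itself. The CALRins5 arrays of SSR1, in its dimmest probe set, all lay below the CALRwt arrays under MEL (7.61 to 7.76 against 8.19 to 8.40) and all above them without it (7.26 to 7.38 against 7.14 to 7.22). Without MEL the other probe sets of SSR1 differed by -0.08, -0.06, -0.10, -0.13 and -0.04, with overlapping arrays. In the dimmest one the 2 differences were -0.71 apart, and the test of the difference in response did not pass (limma adjusted p = 0.274). The arrays of PPP1R15A lay apart in opposite directions in the same way, under MEL by less than the rounding of the values (9.55 to 9.77 against 9.77 to 9.83), and untreated at 9.34 to 9.44 against 9.21 to 9.31. There the 2 differences were -0.24 apart, which did not pass either (adjusted p = 0.955).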

How the results depend on the processing

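The signs of the 22 called differences under MEL were the same under every alternative run, and the counts of calls were not stable. The 22 calls between CALRins5 and CALRwt under MEL became 0 with only the arrays compared and 1 with the 9 MEL arrays, 40 with quantile normalization, 47 with probe sets above the median level, 58 with trend and robust options, 44 with the GAPDH covariate and 999 at an unadjusted p under 0.01. Leaving out 1 array gave 2 to 17. The 16 untreated calls became 0 with only the arrays compared (3577 at an unadjusted p under 0.05), 9 with arrays centred on their medians, 31 above the median level, 45 with trend and robust options, 26 without moderation and 501 at an unadjusted p under 0.01, and 1 to 7 without 1 array. The 0 calls for the difference in response became 1 above the median level, with the GAPDH covariate and without both arrays that stood apart (CALRins5 MEL replicate 1, by its GAPDH value, and CALRdel52 MEL replicate 3, by its correlation with the other arrays), 7 with trend and robust options and 552 at an unadjusted p under 0.01, and 0 to 1 without 1 array. The 22 calls between CALRins5 and CALRdel52 became 0 with only the arrays compared (2932 at an unadjusted p under 0.05), 4 with the 9 MEL arrays, 35 with quantile normalization, 34 with trend and robust options, 42 with the GAPDH covariate, 13 without both arrays that stood apart and 1198 at an unadjusted p under 0.01, and 7 to 27 without 1 array. The count of list members called under MEL was 5 by the brightest probe set and 9 when a gene's probe sets were averaged. The cause was not tested, except that fewer arrays or fewer probe sets entered some of these fits by construction.

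With the replicate number as a fixed replicate block the 4 counts were 23, 19, 0 and 20, and as a random replicate block 23, 16, 0 and 22, with 19 and 22 of the 22 MEL calls among them.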
